A study of Mus musculus with 20 samples.

Results

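The major urinary proteins (Mup) are small secreted carrier proteins of the lipocalin fold that bind pheromones and other hydrophobic ligands. Mouse liver makes them in large amounts, the kidney passes them into urine, and adult males are known to make far more of most of them than females, because the pulsed release of growth hormone in males acts on the liver through its receptor and the transcription factor STAT5B. Mup20, also called darcin, is the male pheromone of the family. All 10 members listed for this study were found by symbol among the 46095 rows of the gene count table: Mup1, Mup2, Mup3, Mup7, Mup9, Mup10, Mup11, Mup17, Mup20 and Mup21. The table holds 34 Mup rows in all, of which 24 (11 genes and 13 pseudogenes) are not members. The members' counts in a library were also added up to a family sum, because near-identical copies can exchange reads.

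Liver RNA was sequenced from 20 mice aged 31 to 33 weeks in 4 groups of 5. The groups were WT mice on Chow diet (WT chow), WT mice on NASH diet (WT NASH), Pck1-cKO mice on Chow diet and Pck1-cKO mice on NASH diet, each fed for 24 weeks. NASH diet is a feed used to bring on non-alcoholic steatohepatitis, and Pck1-cKO mice are liver-specific knockouts of Pck1, an enzyme of glucose synthesis. The labels name neither the Cre driver, the strain nor the sex, and nothing in them says which mice shared a litter or cage, so p-values measure the spread between these libraries. Pck1 stood at 1701 to 4641 CPM (a library's counts scaled to a common total, corrected for composition) in the 10 WT libraries and at 300.4 to 861 CPM in the 10 Pck1-cKO libraries, without overlap.

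Library totals ran from 9958935 to 20601955 counts. The Y-linked genes put 13 libraries as male and 7 as female, and the sexes were unevenly spread over the groups: WT chow held 5 males, WT NASH 1 male (replicate 4) and 4 females, Pck1-cKO chow 3 males (replicates 1, 2 and 4) and 2 females, and Pck1-cKO NASH 4 males and 1 female (replicate 2). There was no WT chow female. In 6 libraries (WT chow replicates 3, 4 and 5, WT NASH replicate 4, Pck1-cKO chow replicates 4 and 5) the levels, taken against each gene's mean over all libraries, fell with gene length. The slopes of that log2 CPM difference on log2 length ran from -0.35 to -0.25, against 0.01 to 0.19 in the other 14. Results are therefore given over all libraries, with sex as a term, in the 13 males, and by slope where that moves them. Because these are bulk samples, fewer hepatocytes and less RNA per hepatocyte cannot be told apart.

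The members lie on chromosome 4 between 60066469 and 62150841 (GRCm38.p6), a stretch of 2084373 bases. Coding sequences from GENCODE M21 were compared to show which counts can be told apart. Mup7 and Mup9 shared 99.1% of their aligned coding bases and Mup2 and Mup9 99.6%, whereas Mup7 shared 90.1% with Mup20, 83.6% with Mup21 and 82.3% with Mup3. The coding bases 127 to 186 of Mup7 show these classes. They are printed beside the same bases of Mup17, Mup20 and Mup3, with capitals where a base differs from Mup7.
Mup7: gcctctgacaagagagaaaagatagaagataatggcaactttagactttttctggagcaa
Mup17: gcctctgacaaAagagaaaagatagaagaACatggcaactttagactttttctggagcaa
Mup20: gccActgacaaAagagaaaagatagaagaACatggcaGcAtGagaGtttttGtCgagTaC
Mup3: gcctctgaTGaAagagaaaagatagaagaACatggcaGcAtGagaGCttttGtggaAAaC
Over this stretch Mup17 differed from Mup7 at 3 of 60 bases, Mup20 at 12 and Mup3 at 14. Among all Mup transcripts, 97.8% of the 100-base stretches of Mup3 and 95.5% of those of Mup21 occurred in no other Mup gene. The same share was 61.2% for Mup20, 44.3% for Mup1, 40.6% for Mup17 and 23.9 to 29.4% for Mup2, Mup7, Mup9, Mup10 and Mup11. Counts of Mup3, Mup20 and Mup21 are therefore the most separable, and those of Mup2, Mup7, Mup9, Mup10 and Mup11 the least. The labels give neither the read length nor the handling of reads that match several genes. In addition, 6 of the 10 symbols belong to genes whose older names are now carried by other Mup genes, and the naming release behind the table is not given.

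RefSeq promoter windows (250 bases before to 50 after a start, GRCm38.p6) were held for 8 members, all on the minus strand. Over all groups the levels of Mup3, Mup10 and Mup17 overlapped between the sexes, as did those of Mup2, Mup9 and Mup11. Bases upstream of the outermost annotated start are printed for Mup7, the most abundant member, Mup10, Mup17 and the separable pair Mup3 and Mup21. TATATAA, a core promoter motif, is in capitals.
Mup7 (chr4:60070476-60070556): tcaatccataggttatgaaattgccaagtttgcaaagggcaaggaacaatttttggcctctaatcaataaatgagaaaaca
Mup10 (chr4:60582277-60582371): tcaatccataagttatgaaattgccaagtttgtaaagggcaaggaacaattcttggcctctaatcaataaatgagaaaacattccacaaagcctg
Mup17 (chr4:61595866-61596042): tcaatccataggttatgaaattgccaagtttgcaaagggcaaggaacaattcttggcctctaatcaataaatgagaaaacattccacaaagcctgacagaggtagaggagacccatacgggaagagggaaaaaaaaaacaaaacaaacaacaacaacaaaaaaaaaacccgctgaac
Mup3 (chr4:62087322-62087478): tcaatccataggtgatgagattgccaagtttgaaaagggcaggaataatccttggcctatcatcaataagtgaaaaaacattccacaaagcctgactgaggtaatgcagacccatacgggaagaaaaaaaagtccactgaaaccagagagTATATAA
Mup21 (chr4:62150843-62150996): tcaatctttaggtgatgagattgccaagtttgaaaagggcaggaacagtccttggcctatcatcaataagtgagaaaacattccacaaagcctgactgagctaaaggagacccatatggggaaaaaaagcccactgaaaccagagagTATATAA
TATATAA on either strand occurred in 7 of the 8 member windows and in 3.24% of the 32851 windows of all genes. In Mup2, Mup9, Mup10 and Mup17 it began 74 to 77 bases after the first base of CCCATA, the A-rich stretch between them being longer than in Mup3 (40 bases) and Mup21 (37 bases). The motif TTCNNNGAA, to which STAT factors are known to bind, was found on neither strand of the 8 member windows, and 8.3% of all windows held it. The longest run shared by all 8 windows had 15 bases, AAAACATTCCACAAA, found in 0.0365% of all windows.

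Mup7 was the leading member in the WT males. In the WT chow libraries, replicates 1 to 5 in order, it stood at 8064, 9916, 30785, 21115 and 11099 CPM. In the WT NASH libraries it stood at 3.87, 5.16, 2.36, 76107 and 6.84 CPM, the fourth being the male. All WT chow libraries were high, and the WT NASH libraries lay far below them except the male, which was the highest of all 20. In the Pck1-cKO chow males it stood at 1633, 1657 and 48.6 CPM and in the females at 4.26 and 4.25 CPM. In the Pck1-cKO NASH males it stood at 134, 521, 192 and 119 CPM and in the female at 1.84 CPM. Every Pck1-cKO male lay below every WT male, and all 7 females lay below all 13 males.

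Mup20, the pheromone darcin, was also high in WT males and low in females. Its WT chow values were 449, 543, 6013, 4403 and 1853 CPM. Its WT NASH values were 4.39, 6.47, 3.51, 4625 and 8.78 CPM. The Pck1-cKO chow males had 82.1, 81.7 and 94.5 CPM and the females 3.47 and 7.29 CPM. The Pck1-cKO NASH males had 50.3, 173, 149 and 85 CPM and the female 12.8 CPM. The Pck1-cKO males on both diets lay below the WT males and above all females. In WT chow the 3 libraries of negative length slope held the 3 highest values of Mup20, and also of Mup1, Mup3, Mup7, Mup9, Mup10, Mup21 and the family sum. The part of the slope in these levels was not tested.

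Mup3, a separable member and the leading one in 6 of the 7 females, was less sex-biased. It stood at 666, 676, 3642, 3931 and 1896 CPM in WT chow. In WT NASH it stood at 97.3, 422, 129, 8006 and 476 CPM. In Pck1-cKO chow it stood at 358, 144, 111, 392 and 174 CPM, and in Pck1-cKO NASH at 71.2, 49.5, 248, 430 and 80.5 CPM. WT chow lay above both Pck1-cKO groups without overlap, while the WT NASH females overlapped the Pck1-cKO males.

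**Figure D1:**
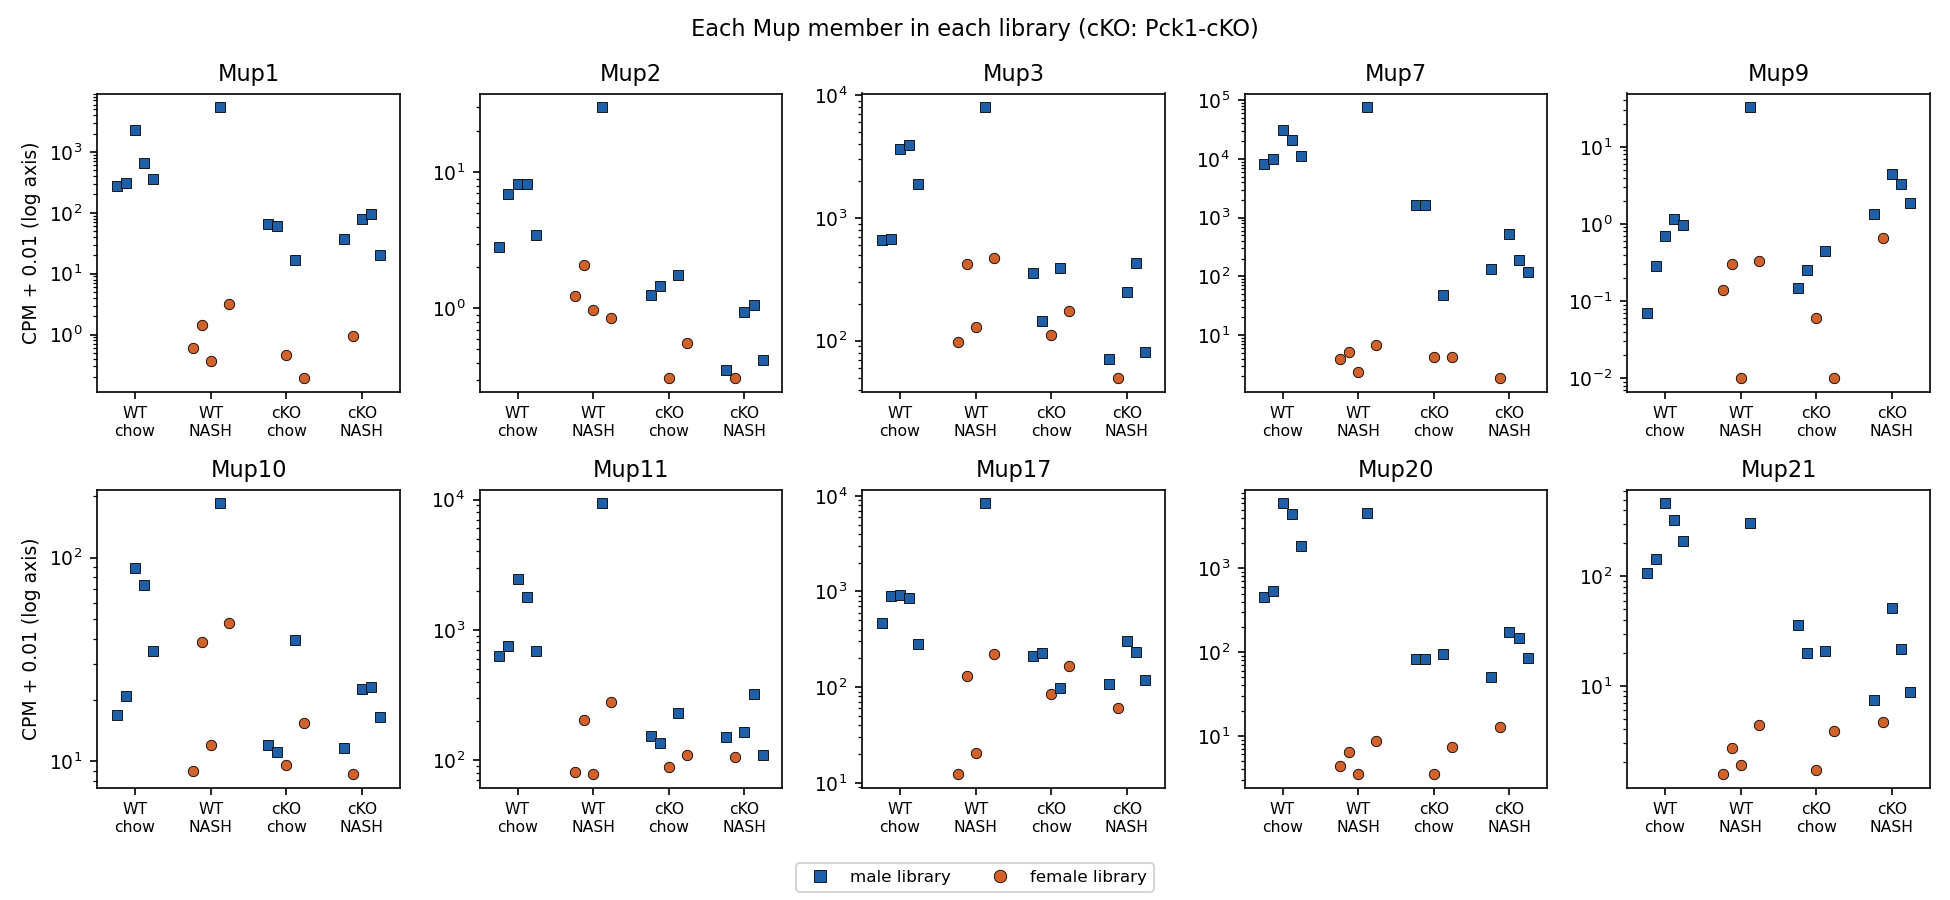
CPM of each Mup member in each library (log axis with 0.01 CPM added, scale differing between panels), by group, with squares for male and circles for female libraries. WT NASH replicate 4, the male, is the highest library in 8 of the 10 panels, and in Mup1, Mup7, Mup20 and Mup21 every female lies below every male.

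The other members spanned a wide range of levels. Mup1 stood at 277 to 2268 CPM in WT chow, at 16.8 to 96.2 CPM in the 7 Pck1-cKO males and at 0.182 to 3.16 CPM in the females. Mup11 stood at 628 to 2440 CPM in WT chow and at 88.6 to 229 CPM in Pck1-cKO chow. Mup17 stood at 282 to 926 CPM and 84.8 to 229 CPM in the same groups, Mup21 at 108 to 467 CPM and 1.68 to 36.2 CPM, and Mup10 at 16.8 to 88.8 CPM and 9.6 to 39.3 CPM. Mup2 (2.84 to 8.26 CPM in WT chow) and Mup9 (0.0592 to 1.14 CPM) were rare. Per kilobase of exon, the median WT chow level was highest for Mup7 (10745 CPM per kb), followed by Mup20 (1997), Mup3 (1775) and Mup17 (921). In the 4 WT NASH females the order per kilobase was Mup3 (258), Mup11 (89.8), Mup17 (81.6) and Mup10 (18.1), with Mup7 at 4.37 CPM per kb. The ranges of neighbours overlapped in both orders except Mup7, which lay above all others in WT chow.

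The family sum in WT chow was 10676, 13269, 46640, 33154 and 16435 CPM. In WT NASH it was 211, 812, 249, 112531 and 1050 CPM. In Pck1-cKO chow it was 2556, 2340, 304, 942 and 484 CPM, and in Pck1-cKO NASH 574, 245, 1568, 1470 and 562 CPM. The 6 WT males held the 6 highest values, and both Pck1-cKO groups lay wholly below WT chow. As a share of all counts, the members made up 1.08 to 3.51% of a WT chow library and 7.68% of WT NASH replicate 4. They made up 0.0777 to 0.283% in the Pck1-cKO chow males, 0.074 to 0.177% in the Pck1-cKO NASH males and 0.0232 to 0.104% in the females. In WT chow Mup7 alone ranked 3rd to 13th among all genes by count.

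**Figure D2:**
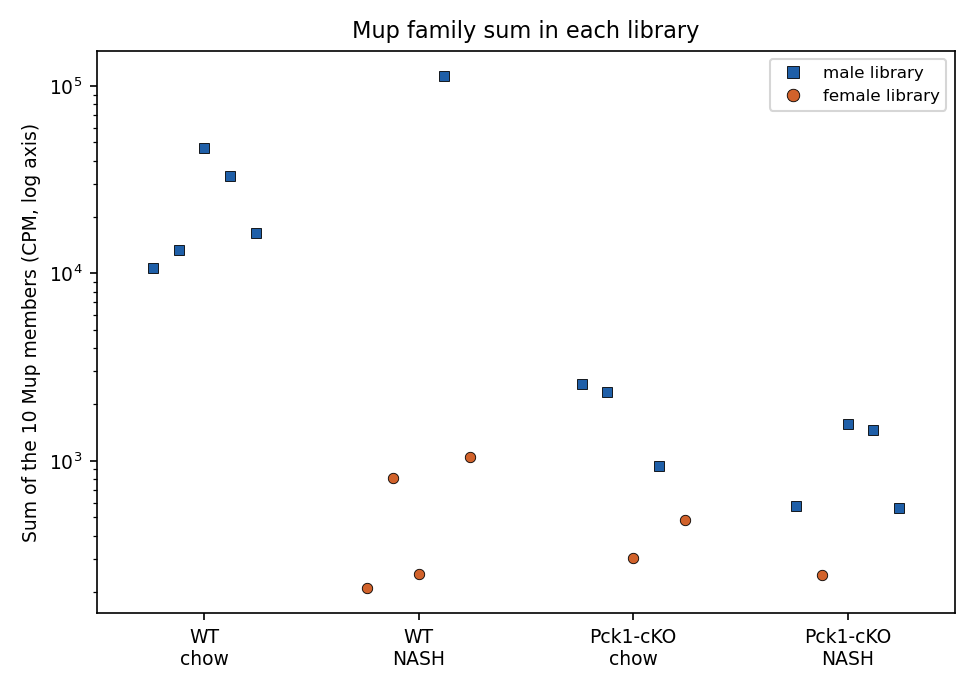
Sum of the 10 Mup members in CPM (log axis) in each of the 20 libraries, by group, with squares for male and circles for female libraries. The WT chow males lie between 10676 and 46640, the WT NASH male at 112531, and the Pck1-cKO libraries of both diets between 245 and 2556.

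The make-up of the family differed with sex, and the share of Mup7 was lower in part of the Pck1-cKO males than in WT males. Mup7 gave 63.7 to 75.5% of the member counts in WT chow and 67.6% in the WT NASH male, but 0.6 to 1.8% in the 7 females. In Pck1-cKO chow males its share was 63.9 and 70.8% in replicates 1 and 2, within the WT chow range, and 5.2% in replicate 4. In Pck1-cKO NASH males it ran from 13.1 to 33.2%, with a lone WT male on that diet. In the females Mup3, Mup11 and Mup17 gave most of the counts. Mup7 led in 9 of the 13 males and in none of the 7 females.

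**Figure D3:**
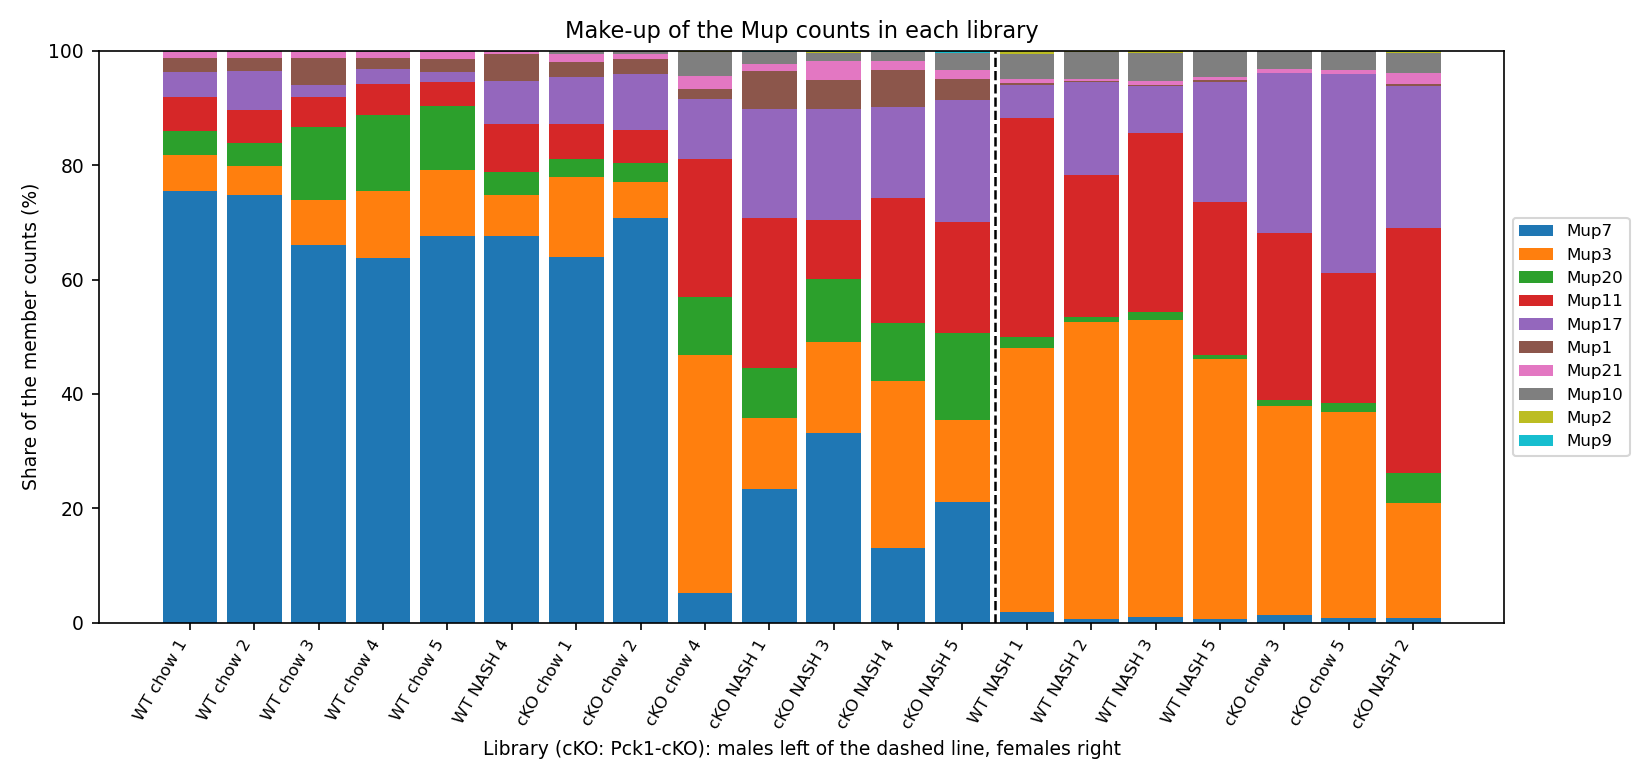
Share of each member in the member counts of a library (percent, stacked), the 13 male libraries left and the 7 female libraries right of the dashed line. Mup7 fills 63.7 to 75.5% in WT chow and at most 1.8% in females, with the Pck1-cKO NASH males between 13.1 and 33.2%.

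The comparison of males with females, with group kept in the fit, gave 6 members higher in males by edgeR's quasi-likelihood test (adjusted p under 0.05), where 0.54% of the 14440 genes tested were called higher in males. These were Mup7 (log2 difference 9.73 ± 1.25 SE, adjusted p = 7.91e-05), Mup1 (8.84 ± 1.06, adjusted p = 3.86e-05), Mup20 (5.54), Mup9 (4.80), Mup21 (4.16) and Mup2 (2.91). Mup3 (2.63, adjusted p = 0.0617 by edgeR), Mup17, Mup11 and Mup10 (1.5) did not pass. With length slope as a second term all 10 members were higher in males, Mup3 (2.36, adjusted p = 0.00451 by edgeR), Mup11 (2.25), Mup17 (2.88) and Mup10 (1.24) included, against 1.16% of all genes. With sex alone as a term the members' median difference was 3.53 against 0.01 for all genes. Mup1, Mup7, Mup20 and Mup21 did not overlap between the sexes over all groups, as did 0.215% of all genes in the direction of males. With no WT chow female and a lone WT NASH male, this difference rests on the Pck1-cKO libraries and on that male. The fit takes the same sex difference in every group. The male mean of Mup7 was 16689-fold the female mean in WT NASH, 262-fold in Pck1-cKO chow and 131-fold in Pck1-cKO NASH. For the family sum these ratios were 194, 4.94 and 4.26. The fitted sex difference thus stands for unlike gaps, and all values with sex as a term rest on that assumption.

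The question of what Pck1 loss does on Chow diet was addressed by Pck1-cKO chow against WT chow. The family sum was 18.1-fold lower (mean 1325 against 24035 CPM, n = 5 each), and 8 of 10 members, Mup9 and Mup10 excepted, were lower without overlap, against 2.65% of all genes. By edgeR over all 20 libraries none of the 10 members passed, against 2.49% of all genes called lower. Without adjustment 7 had a p under 0.05. The share of all genes at that unadjusted threshold is not given here. This count, and those at unadjusted p below, describe the members alone. With DESeq2 5 of the 9 members given a p were called (9.62% of all genes), and with limma voom and quality weights 7 of 10 (40.4% of all genes). The members' median log2 fold change was -3.17 against 0 for all genes. Mup20 came to -5.62 ± 1.80 SE (adjusted p = 0.0735 by edgeR) and Mup3 to -3.20 ± 1.03 (adjusted p = 0.0748). Without WT NASH replicate 4, 8 members were called lower, against 7.53% of all genes in either direction.

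Among males only, 3 Pck1-cKO chow against 5 WT chow, 8 members fell by edgeR, against 2.92% of the 15930 genes tested called lower in males. Mup20 fell by 4.93 on the log2 scale (SE 0.897, adjusted p = 0.00663). Mup7 came to -3.85 (SE 0.979, adjusted p = 0.0324 by edgeR). The others were Mup1 (-4.0), Mup21 (-3.27), Mup11 (-2.86), Mup3 (-2.84), Mup2 (-1.99) and Mup17 (-1.91). Mup9 (-1.19) and Mup10 (-1.16) did not pass. The same 8 members did not overlap between these males, as did 6.88% of all genes in that direction. The family sum in males was 12.3-fold lower (1946 against 24035 CPM). It was 4.89-fold lower where the slope was near 0 (2 males against 2) and 34.1-fold lower where it was negative (1 against 3). With sex as a term over all libraries, 2 members fell, Mup20 (-4.17, adjusted p = 0.0404 by edgeR) and Mup21 (-2.89, adjusted p = 0.0379), against 2.73% of all genes.

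**Figure D4:**
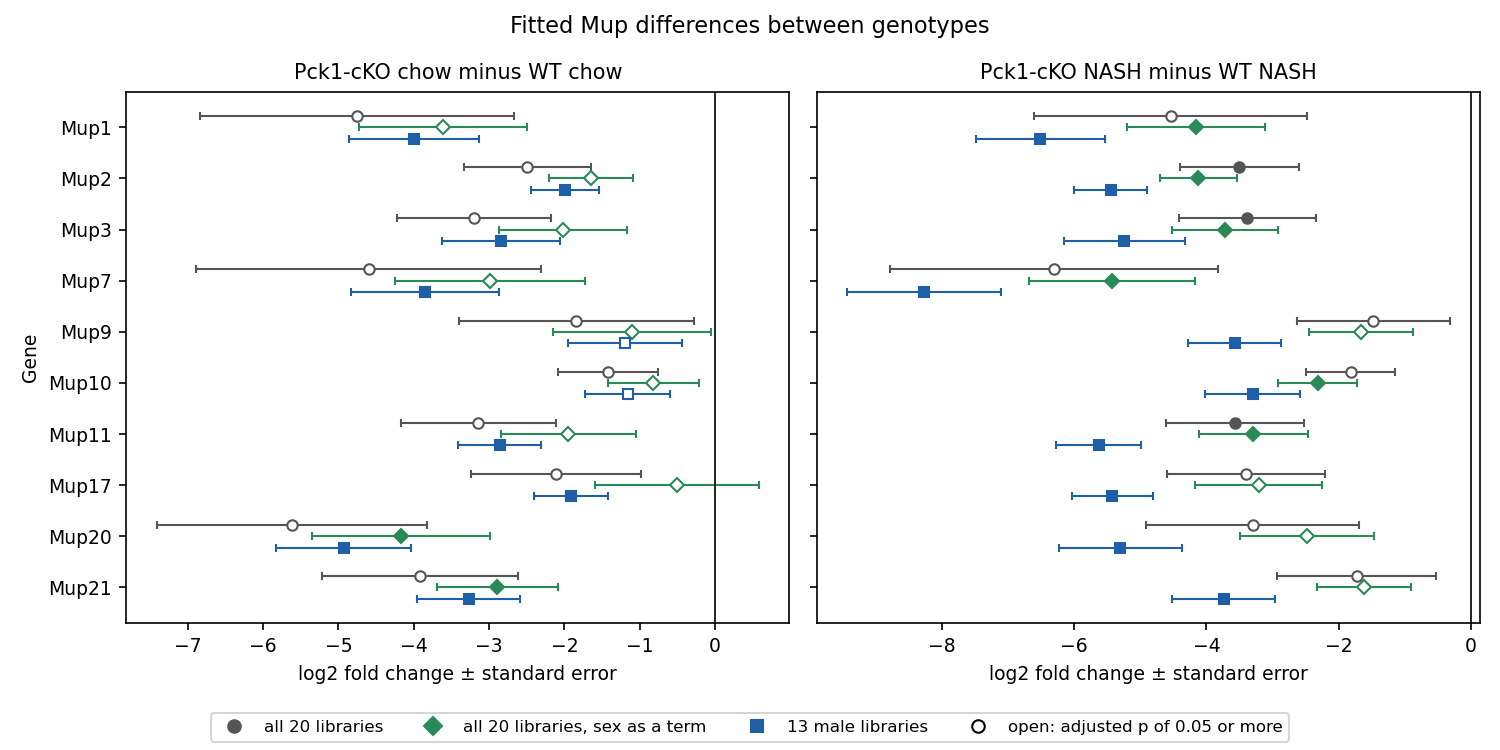
Log2 fold change with its standard error of each member for Pck1-cKO against WT on each diet, over all 20 libraries (circles), with sex as a term (diamonds) and in the 13 males (squares), filled where the adjusted p was under 0.05. On Chow diet the filled squares are 8 of 10, and on NASH diet all 10 squares are filled, there against a lone WT male.

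Pck1-cKO NASH against WT NASH asked the same question on NASH diet, but 4 of the 5 WT NASH libraries were female and 4 of the 5 Pck1-cKO NASH libraries male. Over all libraries 3 members fell by edgeR, against 4.74% of all genes called lower: Mup11 (-3.57 ± 1.05 SE, adjusted p = 0.0365), Mup2 (-3.50 ± 0.90, adjusted p = 0.0196) and Mup3 (-3.38 ± 1.03, adjusted p = 0.0437). The members' median was -3.39 against 0 for all genes, and 0 members were free of overlap, against 14.1% of all genes. With DESeq2 6 of the 9 members given a p were called lower (15.2% of all genes called in either direction). With limma voom and quality weights 2 were called in the opposite direction (23.8% of all genes), Mup9 (3.22, adjusted p = 0.00529) and Mup20 (3.37, adjusted p = 0.00685) being higher in Pck1-cKO NASH. The lower calls by edgeR rest on WT NASH replicate 4. Without that library no member was lower by edgeR and 5 were higher: Mup7 (5.40), Mup1 (5.08), Mup20 (4.02), Mup9 (3.61) and Mup21 (2.84). Of all genes 6.6% were called in either direction. That comparison set 4 WT females against 4 males and 1 female. The edgeR count also dropped to 0 without Pck1-cKO NASH replicate 1 or 5 and to 1 without replicate 2 or 3. It rose to 5 without WT NASH replicate 1. Pck1-cKO NASH replicates 1 and 5 were the closest libraries of their group (chi-square per degree of freedom 7.81 over genes, against 44.8 to 81.8 for its other pairs). They differed beyond sampling noise and were counted as separate mice, and with their counts summed into 1 library no member passed by edgeR.

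Within each sex the NASH-diet comparison has a lone library on one side. Against the WT NASH male, all 10 members were lower in the 4 Pck1-cKO NASH males by edgeR, against 9.69% of all genes, if that male is assumed to vary like the other groups. The largest were Mup7 (-8.27 ± 1.16 SE, adjusted p = 0.00174), Mup1 (-6.51) and Mup11 (-5.63), and the family sum was 108-fold lower (1043 against 112531 CPM). The female side, the Pck1-cKO NASH female against 4 WT NASH females, gave 0 calls by edgeR (2 at unadjusted p under 0.05, against 0.125% of all genes called higher and 0.0132% lower), and its family sum of 245 CPM lay within the 211 to 1050 CPM of the WT females. With sex as a term 6 members fell, against 2.31% of all genes: Mup7 (-5.43), Mup1 (-4.16), Mup2 (-4.12, adjusted p = 0.000588 by edgeR), Mup3 (-3.72), Mup11 (-3.29) and Mup10 (-2.32). WT NASH replicate 4 alone stands for WT males on NASH diet in that fit too.

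NASH diet and sex went together in the WT mice, since WT chow held 5 males and WT NASH 4 females and 1 male. Over all libraries no member passed by edgeR, against 5.93% of all genes called in either direction, with 1 at unadjusted p under 0.05. With DESeq2 0 were called (10.4% of all genes) and with limma voom 8, all lower (40.6% of all genes). The members' median was 0.25 against 0.01 for all genes. Without replicate 4, 8 members were lower, from Mup7 (-11.81) to Mup2 (-2.21), against 11.7% of all genes in either direction. In males, the lone WT NASH library against 5 WT chow libraries, 2 members were higher by edgeR, Mup9 (5.76 ± 0.70 SE, adjusted p = 0.00169) and Mup17 (3.59 ± 0.57, adjusted p = 0.0108), against 0.314% of all genes. With sex as a term, which takes the sex difference from the Pck1-cKO libraries and that male, 1 member was higher, Mup9 (4.46, adjusted p = 0.0163 by edgeR), against 0.457% of all genes. The family sum of the WT NASH male was 4.68-fold above the WT chow mean. Beside these levels, WT NASH replicate 4 had the lowest total (9958935), a negative length slope (-0.26) and the lowest scaling factor (0.683).

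NASH diet in Pck1-cKO mice left most members without a call. By edgeR 0 of 10 passed over all libraries, against 3.29% of all genes, with 1 at unadjusted p under 0.05. By DESeq2 there were 0 (9.02% of all genes) and by limma voom 1 (12.7%). The family sum went from a mean of 1325 to 884 CPM with overlapping libraries, and from 1946 to 1043 CPM in males. Over all Pck1-cKO males the family sum and Mup7 overlapped between the diets. In the males of slope near 0, 4 on NASH diet and 2 on Chow diet, the sum went from 2448 to 1043 CPM without overlap. Mup7 was 6.81-fold lower there, also without overlap. Non-overlap comes easily with 2 libraries on a side, and the share of all genes in that split is not given. The low Pck1-cKO chow male was replicate 4, a library of negative slope. Mup9 moved apart from the rest. It stood at 0.139, 0.241, 0.0495, 0.436 and 0 CPM in Pck1-cKO chow and at 1.32, 0.641, 4.47, 3.26 and 1.86 CPM in Pck1-cKO NASH. The 5 NASH libraries lay above the 5 chow libraries, as did 4.19% of all genes. The log2 fold change was 3.78 ± 1.44 SE (adjusted p = 0.136 by edgeR) over all libraries, and 3.89 ± 1.03 (adjusted p = 0.041) with sex as a term, where 2.14% of all genes were called higher. Mup9 is a rare member, and 28.1% of its 100-base stretches are its own. The difference between the genotypes in the diet's effect gave no call by edgeR (0 of 10, with 0 at unadjusted p under 0.05, against 0.139% of all genes). DESeq2 gave 0 there (1.31% of all genes) and limma voom 6 higher (13.5%), and without WT NASH replicate 4 there were 6 higher (0.981%).

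Genes known to share the sex bias of the family were taken from lists. Of 18 male-biased liver genes, 10 were higher in males with group in the fit, against 0.54% of all genes, and none lower. In Pck1-cKO chow males 10 of 18 fell, against 2.92% of all genes, and none rose. Among them were Serpina12 (-7.29, adjusted p = 0.00162 by edgeR), Moxd1 (-6.61) and Hsd3b5 (-6.22), a steroid dehydrogenase-like enzyme. The list's median was -1.49 against -0.05 for all genes. On NASH diet, against the lone WT male, 12 of 18 fell in Pck1-cKO males, against 9.69% of all genes, and none rose. Their summed level was 4136 to 6993 CPM in WT chow and 411 to 2021 CPM in Pck1-cKO chow, where 2 of the 5 mice were female. Of 18 female-biased liver genes, 15 were lower in males, against 0.478% of all genes. In Pck1-cKO chow males the list's median was -0.21 against -0.05 for all genes, with 2 of the 15 tested called higher and none lower. The share of all genes called higher in that fit is not given here, so the count describes those genes alone. Of these Cyp2b9, a cytochrome P450 of foreign compound metabolism, rose (7.69, adjusted p = 0.00261 by edgeR).

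In the growth hormone pathway, Ghr, the hormone's receptor, fell in Pck1-cKO chow (-0.93 ± 0.24 SE, adjusted p = 0.0276 by edgeR) and in Pck1-cKO NASH (-1.09 ± 0.24, adjusted p = 0.00812). Its WT libraries ran from 317 to 471 CPM (chow) and from 490 to 695 CPM (NASH), its Pck1-cKO libraries from 150 to 325 CPM and from 209 to 383 CPM. In males alone Ghr fell by 1.06 on Chow diet and by 1.33 on NASH diet, there against the lone WT male (adjusted p = 0.0478 and 0.0431 by edgeR). Igf1, the growth factor that growth hormone induces, fell in Pck1-cKO NASH (-1.21 ± 0.25, adjusted p = 0.00481), and Igfals, which carries it in blood, fell in Pck1-cKO chow males (-1.74, adjusted p = 0.018). Stat5a (1.75) and Stat5b (1.31) were higher in WT NASH than in WT chow over all libraries, and neither passed with sex as a term. Of the 12 genes of this list 1 passed on Chow diet (2.49% of all genes called lower) and 3 on NASH diet (4.74%) over all libraries, all lower in Pck1-cKO. The third on NASH diet was Prlr, the prolactin receptor (-2.04). Prlr was lower in males than in females (-2.39, adjusted p = 0.000318 by edgeR), and its NASH-diet call did not hold with sex as a term. Between genotypes the median of the 12 genes was 0.09 on Chow diet and -0.55 on NASH diet, against 0 for all genes. With sex as a term it was -0.43 and -0.3, against 0 and 0.02. In males alone it was -0.52 on Chow diet, against -0.05 for all genes. Against the lone WT NASH male it was 0.4, the other direction, against 0.19 for all genes.

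Over all libraries 1 of 12 liver transcription factors, Nr3c1, the glucocorticoid receptor, was called between genotypes (-0.64 ± 0.18 on NASH diet, adjusted p = 0.027 by edgeR). Its call did not hold with sex as a term. Of all genes 2.49% were called lower on Chow diet and 4.74% on NASH diet. Of 12 abundant secreted liver proteins, Serpina1a, an antitrypsin, fell on Chow diet (-1.07) and on NASH diet (-0.82), and Serpina3k fell on NASH diet (-2.03). The Serpina1a call on NASH diet did not hold with sex as a term, nor that on Chow diet in males alone. Of the 6 other lipocalins tested, Rbp4, the retinol carrier, was lower in WT NASH than in WT chow (-1.04, adjusted p = 0.0422 by edgeR). There 5.93% of all genes were called in either direction, and the Rbp4 call did not hold with sex as a term. Against the lone WT NASH male, Ptgds (-4.61), Orm2 (-4.03) and Orm1 (-3.28) were lower in Pck1-cKO NASH males. The median of the 8 lipocalins tested there was -2.74, against 0.19 for all genes. Ptgds was at most 3.16 CPM in any library. The hepatocyte marker sum was 45561 to 118263 CPM in WT chow and 47037 to 111488 CPM in Pck1-cKO chow. Of the 6 markers 1, Serpina1a, was called lower there, against 2.49% of all genes.

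Markers of other Mup-making glands were checked. Of 5 markers of submaxillary or lacrimal gland, Smr3a, Scgb2b27, Esp4 and Obp1a were at 0 in every library, and Amy1, which liver also makes, was the remaining one. Of 5 pancreas markers, Prss1 and Amy2a5 were at 0 in every library and Cpa1 and Pnlip below 0.1 CPM. Cela1, the remaining one, was at 107 CPM in WT NASH replicate 4, at 6.99 to 24 CPM in WT chow and at 2.57 to 10.3 CPM in Pck1-cKO chow. Its part in the Mup levels of that library was not tested.

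The non-member genes whose levels ranked most like the family sum over the 20 libraries were Ttc39c (Spearman rho 0.88), Eif2s3y (0.85), Omd (0.85), Uty (0.84) and Rpap2 (0.83), out of 8979 genes ranked. Eif2s3y and Uty are Y-linked. The family sum overlapped between the sexes, with males from 562 CPM and females up to 1050 CPM. Values over all libraries mix the sex split with differences within a sex. Within the 13 males rho was 0.89, 0.77, 0.76, 0.76 and 0.74, and within the 7 females 0.07, 0.11, 0.39, 0.0 and 0.46. The lowest were Cyp2b13 (-0.86), Trim24 (-0.85) and Abcd2 (-0.85), with -0.80, -0.76 and -0.82 within males and -0.04, -0.25 and 0.36 within females. Among members, rho with the sum ran from 0.42 (Mup9) to 0.97 (Mup7).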

How the data were processed

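Liver RNA-seq of 20 mice (4 groups of 5) was analysed from the gene count table that the authors deposited. These are whole-number read counts per gene, not normalized. Reads were aligned with HISAT2 2.0.4 to GRCm38, per the submitters' processing notes. The counting program, annotation and strand setting: not given in the sources used here. HFD in the column names was matched to the NASH diet by elimination. Sex was read from Y-linked counts (at least 100 for a male).

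Library totals were scaled by TMM, and CPM are on that scale. Genes passing filterByExpr (minimum count 10), 14440 of 46095, were tested with edgeR 4.0.16 (R 4.3.3, quasi-likelihood, all 20 libraries) with Benjamini-Hochberg adjustment over all genes tested, at 0.05, and the fit was tested on simulated data. The family sum, lists and likeness are descriptions without a test. DESeq2 1.42.0 and limma 3.58.1 voom were alternatives. Named were all members, per list the 3 called genes of largest change, and the genes ranking most and least like the family sum (pseudocount 0.5 CPM). The members, lists and comparisons were chosen with earlier results of these data known. The result of 1 gene of the female-biased list is not reported here.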

Additional observations from a re-analysis of the deposited data

Results flagged for a closer look

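In each group of 5 libraries, a value was examined for standing apart from the rest (gap to the nearest library over the group's range above 0.71, which chance passes in about 1 in 20 groups). Of 44 groups, 14 held such a library, and 11 of the 14 were WT NASH replicate 4, the male among 4 females. Its CPM were 5459 for Mup1, 30.2 for Mup2, 8006 for Mup3, 76107 for Mup7, 32.8 for Mup9, 185 for Mup10, 9391 for Mup11, 8392 for Mup17, 4625 for Mup20, 304 for Mup21 and 112531 for the family sum. These 11 share the same library and are not independent. The others were Mup1 in WT chow replicate 3 (2268 CPM), Mup10 in Pck1-cKO chow replicate 4 (39.3 CPM) and Mup11 in Pck1-cKO NASH replicate 4 (319 CPM).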

How the results depend on the processing

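Of the results, the fall of the members in Pck1-cKO chow against WT chow kept its direction under the scalings, filters, tools and left-out libraries tried, Mup9 excepted (0.11 with sex and length slope as terms). The comparisons that use WT NASH rest on its replicate 4, and where a direction turned below, the cause was not tested. The share of all genes called also moved with the setting. For WT NASH against WT chow it was 5.93% by edgeR, 10.4% by DESeq2 and 40.6% by limma voom. Counts of members below are given without that share, so they describe the calls alone. Main counts of members called were 0, 0, 3, 0 and 0 for the comparisons in the order WT NASH against WT chow, Pck1-cKO chow against WT chow, Pck1-cKO NASH against WT NASH, Pck1-cKO NASH against Pck1-cKO chow, and the difference in diet effect (the interaction).

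The count changed under limma voom with quality weights to 8 lower for WT NASH against WT chow, 7 lower for Pck1-cKO chow against WT chow, 2 higher for Pck1-cKO NASH against WT NASH, 1 higher for Pck1-cKO NASH against Pck1-cKO chow and 6 higher for interaction. The count changed with sex as a term to 1 higher for WT NASH against WT chow, 2 lower for Pck1-cKO chow against WT chow, 6 lower for Pck1-cKO NASH against WT NASH and 1 higher for Pck1-cKO NASH against Pck1-cKO chow. The count changed with length slope as a term to 1 higher for WT NASH against WT chow, 0 for Pck1-cKO NASH against WT NASH and 1 higher for Pck1-cKO NASH against Pck1-cKO chow. The count changed with sex and length slope as terms to 2 higher for WT NASH against WT chow, 3 lower for Pck1-cKO chow against WT chow, 6 lower for Pck1-cKO NASH against WT NASH and 1 higher for Pck1-cKO NASH against Pck1-cKO chow. The count changed in males alone to 2 higher for WT NASH against WT chow, 8 lower for Pck1-cKO chow against WT chow and 10 lower for Pck1-cKO NASH against WT NASH. The count changed without the 6 libraries of negative length slope to 5 lower for WT NASH against WT chow, 1 lower for Pck1-cKO chow against WT chow, 5 higher for Pck1-cKO NASH against WT NASH, 1 higher for Pck1-cKO NASH against Pck1-cKO chow and 1 higher for interaction. The count changed under DESeq2 to 5 lower for Pck1-cKO chow against WT chow and 6 lower for Pck1-cKO NASH against WT NASH. The count changed with only the groups compared to 6 lower for Pck1-cKO chow against WT chow, 0 for Pck1-cKO NASH against WT NASH and 1 higher for Pck1-cKO NASH against Pck1-cKO chow. The count changed under the replicate block to 3 lower for Pck1-cKO chow against WT chow and 1 lower for Pck1-cKO NASH against WT NASH. The count changed in females alone to 0 for Pck1-cKO NASH against WT NASH. The count changed with Pck1-cKO NASH replicates 1 and 5 summed to 0 for Pck1-cKO NASH against WT NASH. The log2 ratio of the family sum moved to 2.23 in males for WT NASH against WT chow, -4.37 without the 6 libraries of negative length slope for WT NASH against WT chow, -2.79 without the 6 libraries of negative length slope for Pck1-cKO chow against WT chow, -1.24 in females for Pck1-cKO NASH against WT NASH and 0.61 without the 6 libraries of negative length slope for Pck1-cKO NASH against WT NASH. Leaving out each library in turn gave counts of 0 to 8 for WT NASH against WT chow, 0 to 8 for Pck1-cKO chow against WT chow, 0 to 5 for Pck1-cKO NASH against WT NASH, 0 to 1 for Pck1-cKO NASH against Pck1-cKO chow and 0 to 6 for interaction. It gave family sum ratios of -5.37 to 0.32 for WT NASH against WT chow, -4.56 to -3.79 for Pck1-cKO chow against WT chow, -5.02 to 0.61 for Pck1-cKO NASH against WT NASH and -0.9 to -0.2 for Pck1-cKO NASH against Pck1-cKO chow. Log2 fold changes turned in sign for WT NASH against WT chow as follows. Use of limma voom with quality weights gave Mup1 -9.46, Mup2 -2.19, Mup9 -1.68, Mup10 -1.16, Mup11 -3.09 and Mup17 -3.19. Replicate block gave Mup1 -5.68, Mup2 -0.94, Mup10 0.0, Mup11 -1.24 and Mup17 -0.91. Sex as a term gave Mup3 0.47 and Mup7 0.19. Length slope as a term gave Mup1 -0.48 and Mup2 -0.07. Sex and length slope as terms gave Mup3 0.85 and Mup7 0.07. Males alone gave Mup3 1.87, Mup7 2.21, Mup20 0.78 and Mup21 0.25. Without the 6 libraries of negative length slope gave Mup1 -7.72, Mup2 -1.91, Mup11 -2.09 and Mup17 -2.81. Over the left-out libraries Mup3 ran from -2.96 to 0.07, Mup7 ran from -11.81 to 0.27, Mup1 ran from -9.15 to 1.44, Mup2 ran from -2.21 to 0.49, Mup9 ran from -1.7 to 3.75, Mup10 ran from -0.82 to 0.67, Mup11 ran from -2.99 to 1.05 and Mup17 ran from -2.84 to 1.67. Log2 fold changes turned in sign for Pck1-cKO chow against WT chow as follows. Sex and length slope as terms gave Mup9 0.11. Log2 fold changes turned in sign for Pck1-cKO NASH against WT NASH as follows. Use of limma voom with quality weights gave Mup1 3.95, Mup7 3.83, Mup9 3.22, Mup17 0.94, Mup20 3.37 and Mup21 2.17. Replicate block gave Mup1 1.23, Mup7 2.41, Mup9 0.95, Mup20 1.15 and Mup21 0.32. Length slope as a term gave Mup9 2.11, Mup20 0.57 and Mup21 0.4. Sex and length slope as terms gave Mup9 0.08. Females alone gave Mup9 1.8, Mup20 1.17 and Mup21 0.84. Without the 6 libraries of negative length slope gave Mup1 5.09, Mup7 5.4, Mup9 3.61, Mup11 0.08, Mup17 0.79, Mup20 4.02 and Mup21 2.83. Over the left-out libraries Mup1 ran from -4.98 to 5.08, Mup7 ran from -7.09 to 5.4, Mup9 ran from -1.85 to 3.61, Mup11 ran from -3.92 to 0.07, Mup17 ran from -3.74 to 0.78, Mup20 ran from -3.64 to 4.02 and Mup21 ran from -2.54 to 2.84. Log2 fold changes turned in sign for Pck1-cKO NASH against Pck1-cKO chow as follows. Use of limma voom with quality weights gave Mup10 0.33, Mup17 -0.27 and Mup21 -0.33. Replicate block gave Mup1 -0.26, Mup10 0.03, Mup17 -0.32 and Mup21 -0.37. Sex as a term gave Mup11 -0.29, Mup17 -0.99 and Mup21 -0.05. Length slope as a term gave Mup3 0.16 and Mup10 0.79. Sex and length slope as terms gave Mup10 0.47 and Mup17 -0.31. Males alone gave Mup21 -0.21. Females alone gave Mup17 -1.03. Without the 6 libraries of negative length slope gave Mup10 0.59, Mup17 -0.09 and Mup21 -0.06. Over the left-out libraries Mup17 ran from -0.28 to 0.27, Mup21 ran from -0.64 to 0.69, Mup10 ran from -0.24 to 0.44 and Mup11 ran from -0.12 to 0.47. Log2 fold changes turned in sign for interaction as follows. Use of limma voom with quality weights gave Mup2 1.2, Mup3 2.38, Mup7 9.58, Mup10 1.49, Mup11 3.26 and Mup17 2.92. Replicate block gave Mup2 0.03, Mup3 0.33, Mup7 6.49, Mup10 0.04, Mup11 1.32 and Mup17 0.59. Sex as a term gave Mup1 -0.56 and Mup9 -0.57. Length slope as a term gave Mup3 0.55, Mup10 0.19 and Mup11 0.79. Sex and length slope as terms gave Mup1 -0.84 and Mup9 -0.03. Males alone gave Mup1 -2.52, Mup9 -2.37, Mup20 -0.38 and Mup21 -0.47. Pck1-cKO NASH replicates 1 and 5 summed gave Mup3 0.05. Without the 6 libraries of negative length slope gave Mup2 1.15, Mup3 1.03, Mup7 8.42, Mup10 0.07, Mup11 2.53 and Mup17 2.73. Over the left-out libraries Mup3 ran from -0.83 to 2.52, Mup1 ran from -0.75 to 9.83, Mup2 ran from -1.32 to 1.38, Mup7 ran from -2.49 to 10.01, Mup10 ran from -0.77 to 0.72, Mup11 ran from -0.83 to 3.21, Mup17 ran from -1.63 to 2.89 and Mup9 ran from -0.01 to 5.47.

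The replicate block was checked because groups share replicate numbers. The correlations of same-numbered libraries ran from -0.41 to 0.52, and 6 of 20 libraries correlated best with their own number. No pairing by number was seen. Sex and length slope also vary within the groups, so these correlations cannot decide whether the numbers pair the mice. Depth limits mainly Mup9, which had 28 counts in the 7 females together, and the lone WT NASH male and lone Pck1-cKO NASH female limit each comparison within a sex. WT chow had no female, so females alone gave no value for comparisons with it. The settings that leave out the 6 libraries of negative slope, or replicate 4 among males, were chosen after seeing the data.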

Other observations

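Of the 24 Mup rows that are not members, 3 had no count and 10 averaged over 5 CPM, and 14 were highest in WT NASH replicate 4. Mup14 stood at 174 to 741 CPM in WT chow and at 2717 CPM in that library, and Mup12 at 84 to 813 and 1041 CPM. Mup15 stood at 8.87 to 49.4 CPM in WT chow and at 2460 CPM in that library. Mup13, Mup16, Mup18 and Mup8 reached 500.0, 168, 125 and 112 CPM there, and the pseudogenes Mup-ps12 and Mup-ps19 51.6 and 48.4 CPM. The pseudogene Mup-ps16 went another way: its median was 87.6 CPM in females and 51.7 CPM in males, and it stood at 28.8 to 32.6 CPM in WT chow and at 56.1 to 115 CPM in Pck1-cKO chow.

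The members made up 96 to 97% of all Mup counts in WT chow, 85.8 to 97% over the 13 males and 69.5 to 87.9% in the 7 females.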
